A study of Homo sapiens with 8 samples.

Results

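The 10 genes described here are ARNTL, CLOCK, PER1, PER2, PER3, CRY1, CRY2, NR1D1, NR1D2 and DBP, the core genes of the circadian clock and 1 of its output factors, out of 17166 genes in the expression table. DBP was chosen by its rise with doxycycline in the same libraries, so that rise is given as a description, without a test. The other members were named for their place in the clock, with results of these data already known.

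The libraries come from HCT116, a human colorectal cancer cell line, in which 1 of 2 hairpin RNAs (shRNAs) against the homeobox gene HOXB8, named sh1 and sh2, had been stably introduced. Doxycycline (dox), which switches the hairpin on, was given at 1 ug/ml for 72 hours (dox) or left out (no dox), and polyA-selected RNA was sequenced in 2 repeats of each of the 4 groups, sh2 dox, sh2 no dox, sh1 dox and sh1 no dox, 8 libraries in all. The table calls the second hairpin sh3 where the labels call it sh2, and sh3 was taken as sh2 by elimination; one label field calls all 8 samples induced, and the groups follow the sample titles. All 4 groups carry a hairpin against HOXB8 and no library had dox without one, so the drug and the lower HOXB8 cannot be told apart; the labels do not say whether a line is a clone or a pool, and they give 1 harvest time and no synchronisation, so a shift in clock phase and a change of mean level cannot be told apart.

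The clock is a feedback loop of transcription. CLOCK and BMAL1, the product of ARNTL, bind E-boxes as a pair and switch on the PER and CRY genes, whose proteins return to the nucleus and block that pair. A second loop runs through the nuclear receptors NR1D1 and NR1D2 (REV-ERB alpha and beta), which are switched on by the same pair and repress ARNTL through ROR elements. DBP, a PAR bZIP transcription factor, is a direct target of CLOCK and BMAL1 and passes the rhythm on by binding D-boxes, as does its relative TEF; in mouse liver DBP is among the genes with the largest daily swing.

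The promoters of the members were read from RefSeq sequence of build GRCh38.p14. All 10 members were matched by Entrez identifier, with 15 start sites between them. The 250 bases before each start were searched on both strands for the E-box CACGTG, the D-box TTATGTAA and AAGGTCA or AGGGTCA. The last 2 strings share the core of the ROR element but not its full consensus. They are called ROR-core strings here, and the ROR element itself was not searched. E-boxes were found in the windows of NR1D2 and PER1, D-boxes in those of NR1D2 and PER3, and ROR-core strings in those of CRY1, CRY2 and PER1. Among all 35116 promoter windows of this length, 6.34% held the E-box, 0.834% the D-box and 6.48% a ROR-core string. These are shares of single windows, whereas a member was named if any of its windows held the motif, so the units differ. The DBP window held none of these strings. Sites outside the 250 bases and other forms of the motifs were not searched, so this does not show that DBP lacks them. Stretches of 190 bases are shown, those of DBP and its relative TEF because both genes had higher levels with dox. Those of NR1D2, PER1 and PER3 are shown because they hold E-boxes or D-boxes. CRY1 and CRY2, which held only ROR-core strings, are not shown. Each stretch is the far end of a 250-base window, 5′ to 3′ on the gene's strand, with motifs in capitals. 
DBP (chr19:48637440-48637629, minus strand): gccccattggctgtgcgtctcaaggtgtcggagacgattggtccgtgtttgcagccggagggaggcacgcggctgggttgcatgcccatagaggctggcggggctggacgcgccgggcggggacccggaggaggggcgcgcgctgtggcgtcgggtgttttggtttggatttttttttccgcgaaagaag
TEF (chr22:41381692-41381881, plus strand): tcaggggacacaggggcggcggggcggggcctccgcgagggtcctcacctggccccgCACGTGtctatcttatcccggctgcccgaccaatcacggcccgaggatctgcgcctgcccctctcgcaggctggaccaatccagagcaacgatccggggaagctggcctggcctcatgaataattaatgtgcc
NR1D2 (chr3:23945871-23946060, plus strand): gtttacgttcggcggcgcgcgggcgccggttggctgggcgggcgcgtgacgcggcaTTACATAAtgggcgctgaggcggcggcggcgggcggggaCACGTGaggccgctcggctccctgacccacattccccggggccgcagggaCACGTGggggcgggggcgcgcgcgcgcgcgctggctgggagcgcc
PER1 (chr17:8152465-8152654, minus strand): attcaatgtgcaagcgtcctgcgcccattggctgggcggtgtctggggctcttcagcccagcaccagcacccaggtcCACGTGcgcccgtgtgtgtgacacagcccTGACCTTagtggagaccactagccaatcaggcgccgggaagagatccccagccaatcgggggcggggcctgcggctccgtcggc
PER3 (chr1:7784041-7784230, plus strand): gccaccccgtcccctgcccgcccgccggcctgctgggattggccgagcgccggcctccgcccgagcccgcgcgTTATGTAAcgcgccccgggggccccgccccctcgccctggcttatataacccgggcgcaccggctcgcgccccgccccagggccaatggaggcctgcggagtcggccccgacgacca
The NR1D2 stretch held 1 D-box, read here on the opposite strand as TTACATAA, and 2 E-boxes. In PER1 the E-box was followed by a ROR-core string on the opposite strand, TGACCTT. A match of letters is a description of these windows and was not measured as binding.

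HOXB8 messenger RNA, the hairpins' target, was at 7.39 and 6.41 FPKM (fragments scaled to transcript length and to the library's mapped fragments) in sh2 dox libraries, against 17.33 and 18.38 FPKM in sh2 no-dox libraries. In the sh1 line it was at 6.54 and 5.74 FPKM with dox, against 20.80 and 20.42 FPKM without. Libraries of the same group correlated across genes at 0.996 to 0.998 and those of 2 different groups at 0.992 to 0.997. The FPKM columns summed to between 440063 and 446889, and read totals are not known. The step that 1 read adds, read off 16 low genes, averaged between 0.989 and 1.01 of the gene's median in the 8 libraries. Only genes whose values lay within 10% of whole multiples of their lowest value were kept, so these steps had to lie near 1. They cannot show whether read depth was equal. Of 7 epithelial markers, 6 had a mean of at least 1 FPKM, and VIL1 was at 0 to 0.04 FPKM. Of 7 markers of immune cells, fibroblasts and endothelium, CD68, COL1A1 and PTPRC reached that mean, while COL3A1 was at 0 to 0.01 FPKM and PDGFRB, PECAM1 and VWF lay below 0.4 FPKM.

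All 10 members were detected in every library. NR1D1 had the highest level, with a mean of 28.6 ± 4.87 FPKM (SD, n = 8), followed by NR1D2 at 16.0 ± 1.47, DBP at 12.6 ± 5.17 and PER1 at 12.4 ± 2.0 FPKM. The activators came next, CLOCK at 6.50 ± 0.538 and ARNTL at 5.60 ± 0.393 FPKM, and then CRY1 at 4.36 ± 0.451, CRY2 at 3.77 ± 0.557, PER2 at 2.49 ± 0.352 and PER3 at 0.985 ± 0.121 FPKM. NR1D1 lay above NR1D2, PER1 above CLOCK and PER2 above PER3 with no overlap of their ranges over the 8 libraries. The ranges of the other neighbours in this order overlapped: DBP exceeded PER1 in 4 of 8 libraries, and NR1D2 exceeded DBP in 6 of 8. Within each of the 8 libraries CLOCK exceeded ARNTL, ARNTL exceeded CRY1, CRY1 exceeded CRY2 and CRY2 exceeded PER2. DBP varied most between libraries, its highest level being 3.27 times its lowest, whereas that ratio ran between 1.25 for ARNTL and 1.62 for NR1D1 in the other members. DBP was chosen on its dox change in these same libraries, so its wider range is not independent of that choice.

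**Figure D1:**
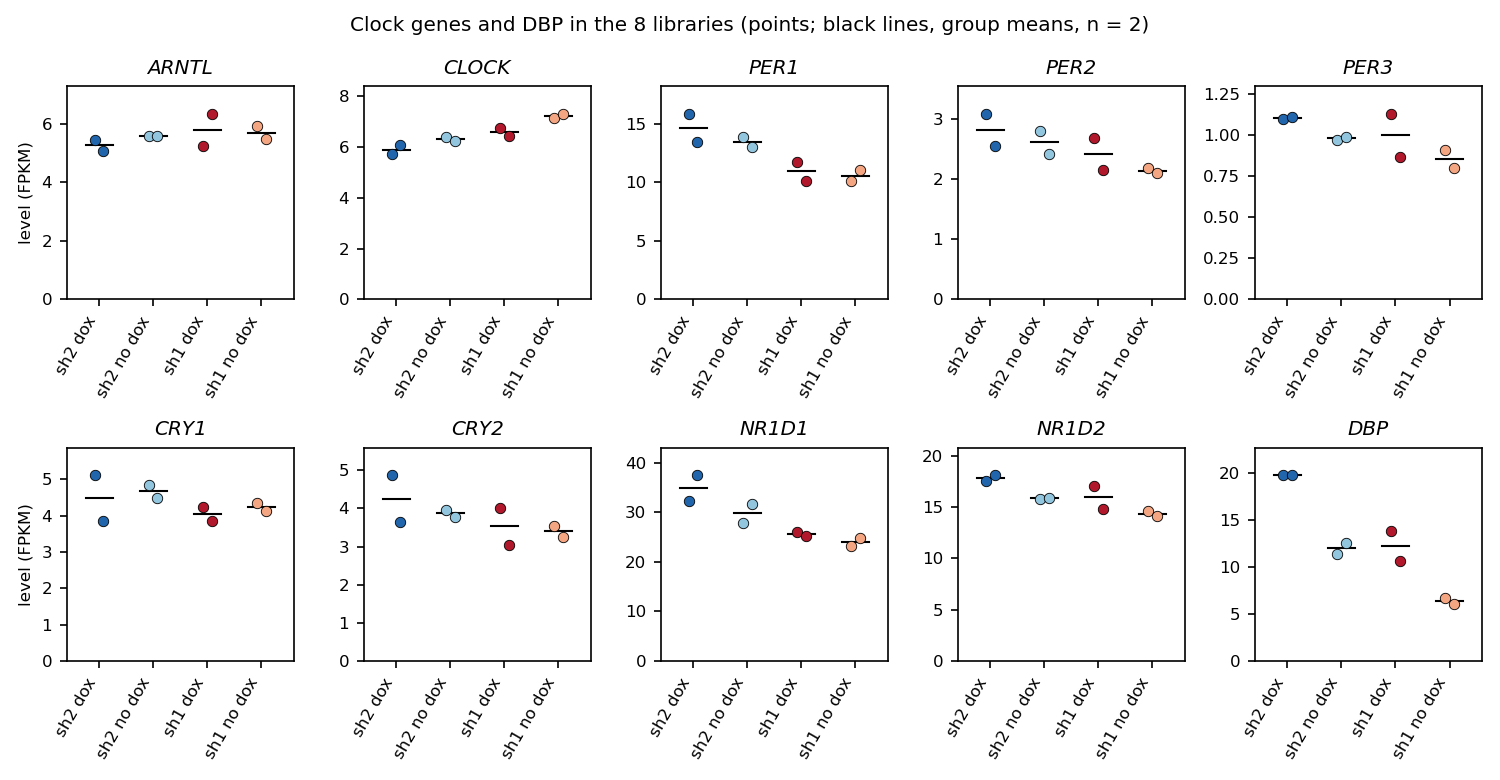
Level in FPKM (vertical axes, each from 0 with its own scale) of the 10 members in the 4 groups (horizontal axes). Points are the 2 libraries of a group and black lines their means; the DBP points lie between 6.04 and 19.77 FPKM, while those of ARNTL lie between 5.09 and 6.35 FPKM.

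DBP was at 19.76 and 19.77 FPKM in sh2 dox libraries, against 11.36 and 12.60 FPKM in sh2 no-dox libraries. In the sh1 line it was at 13.86 and 10.66 FPKM with dox, against 6.71 and 6.04 FPKM without. Within each line both dox libraries were above both no-dox libraries, but across lines the groups overlapped, since sh1-dox-r2 (the second repeat of that group) lay below both sh2 no-dox libraries. Its mean was 74.5% higher with dox, at 16.0 ± 4.53 FPKM in dox libraries against 9.18 ± 3.29 FPKM in no-dox libraries (SD, n = 4 each), and its fitted change averaged over both lines was 0.76 ± 0.07 (SE) on the scale of log2(FPKM + 1). By line, the mean was 65.0% higher with dox in sh2 and 92.3% higher in sh1. The difference between the lines' dox effects was -0.16 for sh2 minus sh1, with a 95% interval of -0.47 to 0.16. Its adjusted p was 0.992 in limma (a linear model across all genes, with adjustment over the 11712 genes tested). This difference did not itself enter the choice of DBP, but the same libraries did. In these bulk samples more cells expressing DBP and more DBP RNA per cell cannot be told apart.

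TEF, the PAR bZIP relative of DBP, also rose. It was at 6.86 and 6.49 FPKM in sh2 dox libraries, against 4.52 and 4.75 FPKM in sh2 no-dox libraries, and at 5.57 and 4.62 FPKM in sh1 dox libraries, against 3.44 and 3.48 FPKM in sh1 no-dox libraries. As for DBP, dox libraries lay above no-dox libraries within each line, and sh1-dox-r2 lay below 1 of the 2 sh2 no-dox libraries. Averaged over both lines, TEF was 45.4% higher with dox (log2 change 0.45 ± 0.06 SE, limma adjusted p = 0.00127), with a change of 0.45 in sh2 (adjusted p = 0.0252) and 0.45 in sh1 (adjusted p = 0.0147). The averaged call held in all 16 alternatives run for it, but those within 1 line did not. The sh2 call was lost without sh2-dox-r1 (0.0632), sh2-dox-r2 (0.0740), sh2-nodox-r1 (0.200) or sh2-nodox-r2 (0.0965), and the sh1 call without sh1-dox-r1 (0.0693), sh1-nodox-r1 (0.103) or sh1-nodox-r2 (0.0703). With no filter on low values both were lost (0.108 in sh2 and 0.0701 in sh1). HLF, another PAR bZIP gene, was at 0.15 to 0.34 FPKM and was not tested, and NFIL3, a repressor that binds the same D-boxes, was at 10.45 to 11.73 FPKM.

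The genes whose levels followed DBP most closely over the 8 libraries were found by Pearson's correlation of log2(FPKM + 1) among 11703 other tested genes. ZNF467, a zinc finger gene, had a correlation of 0.985, TEF 0.985, the xylosyltransferase gene XYLT1 0.983, the ribosomal protein gene RPL37A 0.982 and TCEA2, a gene of the transcription elongation factor family, 0.980. All 8 libraries share the 4 groups, so these values describe likeness of pattern and carry no test. The size of the swing differed: RPL37A ran from 1447 to 1662 FPKM and XYLT1 from 1.01 to 1.42 FPKM.

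Of the nuclear receptor genes of the second loop, NR1D2 passed the test narrowly and NR1D1 did not. NR1D2 was at 17.57 and 18.09 FPKM in sh2 dox libraries, against 15.83 and 15.89 FPKM in sh2 no-dox libraries. In the sh1 line it was at 17.08 and 14.83 FPKM with dox, against 14.61 and 14.08 FPKM without. Dox libraries lay above no-dox libraries within each line. Averaged over both lines NR1D2 rose by 0.15 ± 0.05 (SE) on the log2 scale, 11.9% in mean FPKM, just inside the threshold of an adjusted p under 0.05 (limma adjusted p = 0.0475). The call was lost without any 1 of 7 libraries, with adjusted p = 0.123 without sh1-dox-r1, 0.0942 without sh1-nodox-r1, 0.132 without sh1-nodox-r2, 0.0536 without sh2-dox-r1, 0.108 without sh2-dox-r2, 0.126 without sh2-nodox-r1 and 0.108 without sh2-nodox-r2. It was also lost with no filter on low values (0.107) and under quantile normalization (0.0704), among other settings.

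NR1D1 was at 32.31 and 37.50 FPKM in sh2 dox libraries, against 27.90 and 31.69 FPKM in sh2 no-dox libraries, and at 26.00 and 25.23 FPKM in sh1 dox libraries, against 23.14 and 24.74 FPKM in sh1 no-dox libraries. Each line's dox libraries were above its no-dox libraries, and both sh1 dox libraries lay below both sh2 no-dox libraries. The averaged change was 0.16 ± 0.05 (SE), 12.6% in mean FPKM, and did not pass (limma adjusted p = 0.0719); it did without sh2-dox-r1 (0.0176). By line it was 0.22 in sh2 (adjusted p = 0.155) and 0.09 in sh1 (adjusted p = 0.482), and the difference between these, 0.13, had an interval of -0.11 to 0.37.

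The activator genes did not pass the test. CLOCK was at 5.70 and 6.08 FPKM in sh2 dox libraries, against 6.40 and 6.22 FPKM in sh2 no-dox libraries, and at 6.73 and 6.41 FPKM in sh1 dox libraries, against 7.15 and 7.30 FPKM in sh1 no-dox libraries. Within each line its dox libraries lay below its no-dox libraries, the only one of the tested members with that order. Its averaged change was -0.10 ± 0.04 (SE; limma adjusted p = 0.136), or -7.94% in mean FPKM. ARNTL, the target of the REV-ERB receptors, was at 5.46 and 5.09 FPKM in sh2 dox libraries, against 5.60 and 5.59 FPKM in sh2 no-dox libraries, and at 5.26 and 6.35 FPKM in sh1 dox libraries, against 5.93 and 5.48 FPKM in sh1 no-dox libraries. The groups overlapped in sh1, and the averaged change was -0.03, with an interval of -0.16 to 0.10 (limma adjusted p = 0.783).

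The PER and CRY repressor genes did not pass either. PER1, the most abundant of them, was at 15.83 and 13.44 FPKM in sh2 dox libraries, against 13.84 and 12.96 FPKM in sh2 no-dox libraries, and at 11.76 and 10.09 FPKM in sh1 dox libraries, against 10.11 and 11.02 FPKM in sh1 no-dox libraries. Dox and no-dox libraries overlapped within both lines (averaged change 0.08, interval -0.06 to 0.22, limma adjusted p = 0.414). PER2 ranged over 2.14 to 3.08 FPKM in dox libraries and 2.09 to 2.80 FPKM in no-dox libraries, with an averaged change of 0.10 (adjusted p = 0.400). CRY1 ranged over 3.84 to 5.11 FPKM in dox libraries and 4.14 to 4.85 FPKM in no-dox libraries (change -0.06, adjusted p = 0.625). CRY2 ranged over 3.04 to 4.87 FPKM in dox libraries and 3.26 to 3.97 FPKM in no-dox libraries (change 0.07, adjusted p = 0.637). For these 3 genes the dox range enclosed most of the no-dox range, so their groups overlapped. PER3 was at 0.87 to 1.13 FPKM in dox libraries and 0.80 to 0.99 FPKM in no-dox libraries; its mean lay just under the 1 FPKM needed for the test, and with no such filter its change was 0.10 ± 0.05 (SE; limma adjusted p = 0.308).

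Of the 8 tested members other than DBP, 1 passed for the averaged dox effect, NR1D2, while 16.3% of all tested genes passed (1906 of 11712). At an unadjusted p under 0.05 there were 3 of these 8, beside 32.2% of all genes. Within the sh2 line alone 0 of the 8 passed, with 2.54% of all genes past the threshold, and within the sh1 line alone 0 of the 8, with 6.27% of all genes; at an unadjusted p under 0.05 there were 2 of the 8 in sh2, beside 18.7% of all genes, and 0 of the 8 in sh1, beside 24.6%. For the difference of the dox effects 0 of the 9 tested members passed, with 0% of all genes in limma, and 0 of the 8 members other than DBP had an unadjusted p under 0.05, beside 566 genes or 4.83% of all. Dox libraries lay above no-dox libraries within both lines in 2 of the 8 members other than DBP, NR1D1 and NR1D2, against 16.7% of all genes, and below in 1 of the 8, CLOCK, against 11.2%. The median log2 change of the 8 members was 0.07 and that of all genes 0.02.

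**Figure D2:**
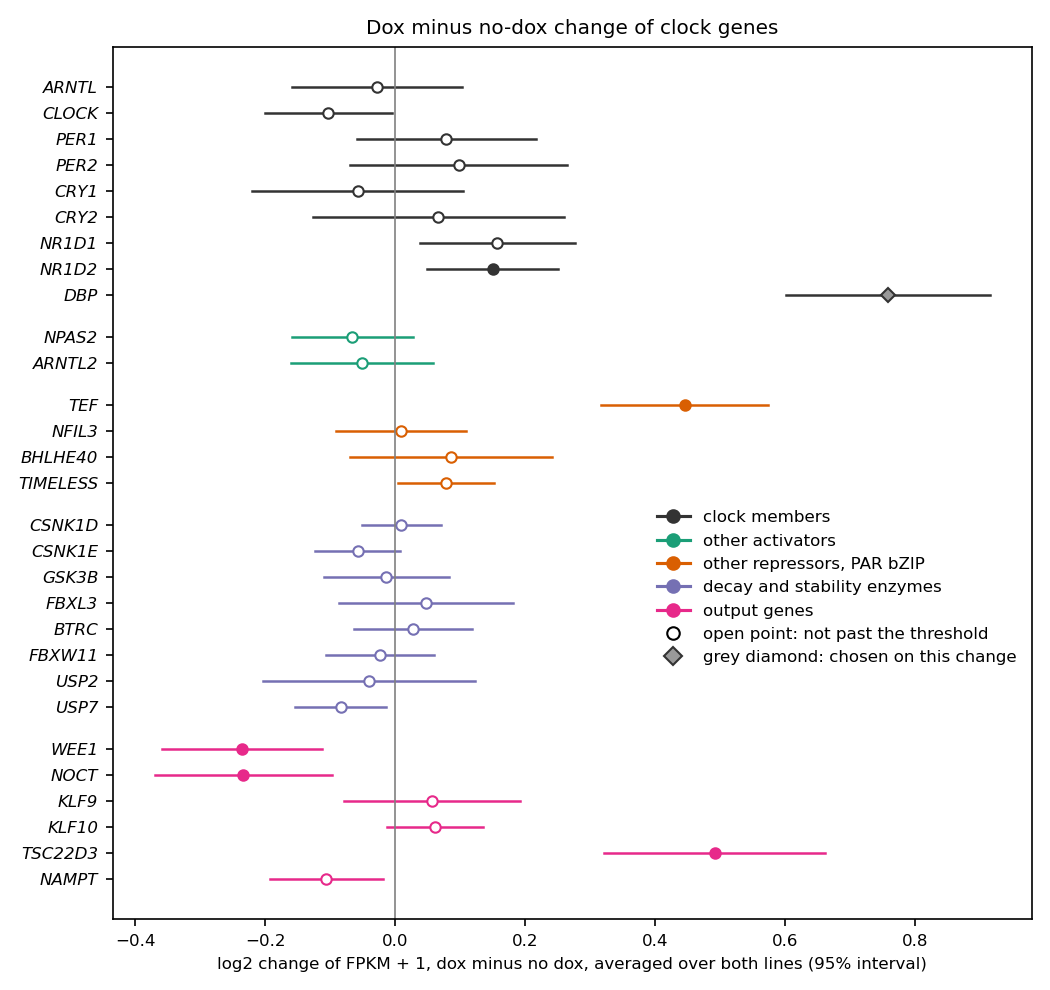
Log2 change of FPKM + 1 (horizontal axis), dox minus no dox averaged over both lines, with 95% intervals, for the 9 tested members and the 20 tested genes of 4 further lists of clock genes (vertical axis). Filled circles passed an adjusted p under 0.05 and open circles did not; the grey diamond is DBP at 0.76, chosen on this change, with TSC22D3 at 0.49 and TEF at 0.45 the next highest.

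The 2 lines differed in DBP before any dox was given. This difference did not itself enter the choice of DBP. The same libraries did, and their spread is shared by all comparisons, so the test is not independent of that choice. In untreated cells DBP averaged 12.0 ± 0.877 FPKM in sh2 and 6.38 ± 0.474 FPKM in sh1 (SD, n = 2 each), 87.9% higher in sh2, with both sh2 libraries above both sh1 libraries. The log2 difference was 0.82 ± 0.10 (SE; limma adjusted p = 0.00516), and DBP was the 1 member of 9 that passed, with 1.45% of all genes past the threshold. The call was lost without sh1-nodox-r2 (0.0545), without sh2-nodox-r2 (0.0770) and with no filter on low values (0.0941). With dox the difference was 0.66 (61.2% in mean FPKM), which did not pass (adjusted p = 0.0700) but did without sh1-dox-r1 (0.0170) and when the filter was raised to a mean of 5 FPKM (0.0360). None of the 9 members passed between the induced lines in limma, where 0.0598% of all genes did, and 3 of the 8 other than DBP had an unadjusted p under 0.05, beside 9.93% of all genes.

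Without dox both sh2 libraries lay above both sh1 libraries in 7 of the 9 tested members, DBP, NR1D1, NR1D2, PER1, PER2, CRY1 and CRY2, beside 32.4% of all genes. This held in both states for 4 of them, DBP, NR1D1, NR1D2 and PER1, beside 11.2% of all genes. In untreated cells NR1D1 averaged 29.8 FPKM in sh2 and 23.9 FPKM in sh1 (log2 difference 0.30, limma adjusted p = 0.0780), and the difference passed without sh2-dox-r1 (0.0375) or sh2-dox-r2 (0.0372), libraries that enter it only through the shared spread. PER1 averaged 13.4 FPKM in sh2 and 10.6 FPKM in sh1 (0.32, adjusted p = 0.102). With dox the differences were 0.43 for NR1D1 (adjusted p = 0.114) and 0.39 for PER1 (adjusted p = 0.223). For NR1D2 the difference was 0.14 without dox (adjusted p = 0.297) and 0.15 with dox (adjusted p = 0.455). CLOCK had the opposite order, at 6.31 FPKM in untreated sh2 cells and 7.23 FPKM in untreated sh1 cells (-0.17, adjusted p = 0.187). In limma 0 of the 8 members other than DBP passed between untreated lines and 3 had an unadjusted p under 0.05, beside 18.1% of all genes. Summed levels of the 7 markers of other cell types, carried by CD68 and COL1A1, also had their highest range in sh2 dox and their lowest in sh1 no dox. For DBP the middle groups had the other order, at 12.0 FPKM in sh2 no dox and 12.3 FPKM in sh1 dox. CD68 and COL1A1 did not pass for the averaged dox effect (limma adjusted p = 0.462 and 0.865) or between untreated lines (0.331 and 0.558). PTPRC, at 1.09 to 1.64 FPKM, was higher in every dox library than in any no-dox library. Its averaged change of 0.19 did not pass (limma adjusted p = 0.0912), nor did its difference between untreated lines (0.885). The sums were 17.2 to 18.3 FPKM in sh2 dox and 16.5 to 17.1 FPKM in sh2 no-dox libraries. In the sh1 line they were 15.2 to 16.6 FPKM with dox and 13.8 to 15.6 FPKM without. The 7 epithelial markers summed to 2598 to 2599, 2681 to 2854, 2713 to 2734 and 3261 to 3324 FPKM in the same order of groups, sums carried by KRT8, KRT18 and KRT19. For the averaged dox effect KRT8 (log2 change -0.24, limma adjusted p = 0.000586) and KRT18 (-0.29, adjusted p = 0.000827) fell, while EPCAM (0.13, adjusted p = 0.0106) and CDH1 (0.24, adjusted p = 0.00290) rose. The part of these levels in the results was not tested.

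**Figure D3:**
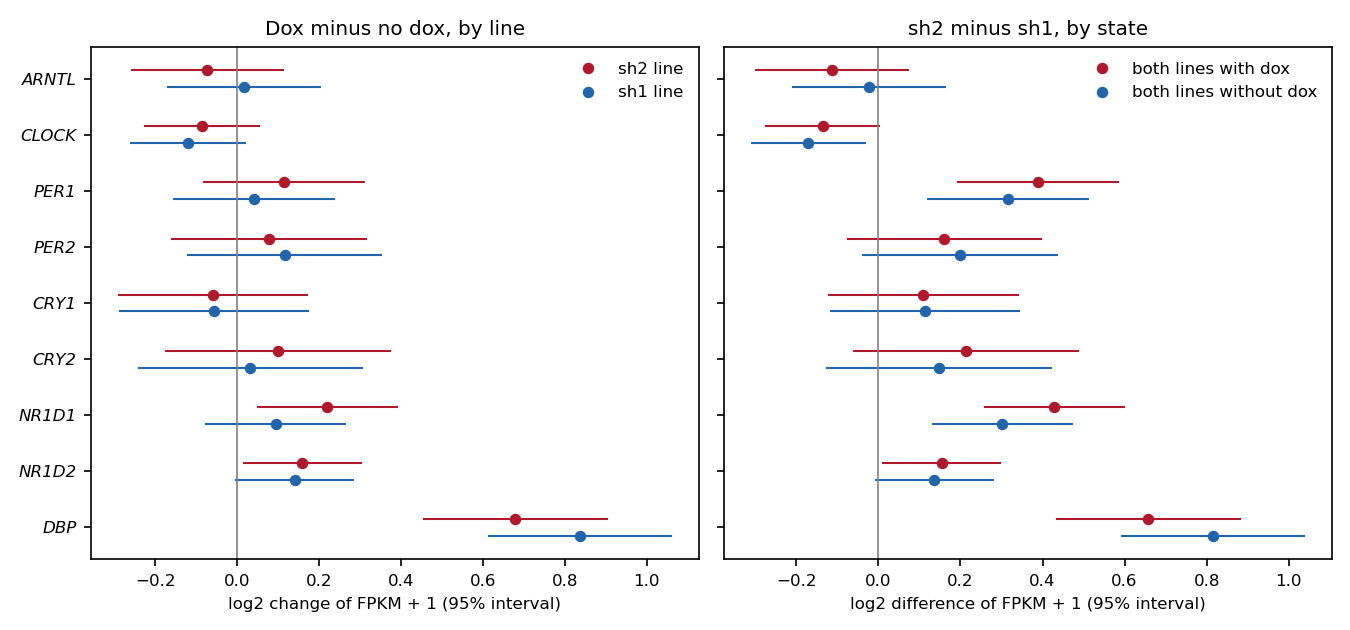
Log2 differences of FPKM + 1 with 95% intervals (horizontal axes) for the 9 tested members (vertical axis). The left panel gives dox minus no dox in each line, where the DBP points, 0.68 in sh2 and 0.84 in sh1, are a description; the right panel gives sh2 minus sh1 in each state, with DBP at 0.66 with dox and 0.82 without.

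DBP, NR1D1, NR1D2 and CLOCK share part of their span with another protein-coding gene in the RefSeq annotation, and the use of strand in counting is not given in the sources used here, so reads of the pair may not be separable. SPHK2, which overlaps DBP by 376 bases, averaged 6.09 ± 0.720 FPKM in dox libraries and 5.90 ± 0.613 FPKM in no-dox libraries (SD, n = 4 each; log2 change 0.04, limma adjusted p = 0.771). Between untreated lines its difference was 0.11 (adjusted p = 0.624). THRA, beside NR1D1, averaged 15.5 FPKM with dox and 14.5 FPKM without (adjusted p = 0.180), and NKIRAS1, beside NR1D2, 7.02 FPKM with dox and 7.77 FPKM without (adjusted p = 0.144). TMEM165, which overlaps CLOCK, averaged 24.2 FPKM with dox and 23.1 FPKM without (adjusted p = 0.225). None of these 4 neighbours passed for the averaged effect or between the untreated lines.

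Beyond the members, 4 lists of clock genes held 27 genes, of which 25 were in the table and 20 were tested. For the averaged dox effect 2 rose and 2 fell, 4 of 20, beside 16.3% of all genes, and the median change was -0.0023, against 0.02 for all genes. Of the other activators and nuclear receptors, NPAS2 and ARNTL2 were tested and 0 of 2 passed; RORA was at 0.01 to 0.05 FPKM. Of the other repressors and PAR bZIP factors, 1 of 4 passed, TEF. BHLHE40 and TIMELESS, which did not, averaged changes of 0.09 and 0.08. Of the kinases, ubiquitin ligases and deubiquitinases that set the lifetime of clock proteins, 0 of 8 passed.

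The output genes held the other 3 calls among 6 tested, beside 16.3% of all genes. Their list was chosen with earlier results of these data known. TSC22D3, a glucocorticoid-responsive gene (GILZ), was at 4.41 and 5.26 FPKM in sh2 dox libraries, against 3.27 and 4.27 FPKM in sh2 no-dox libraries, and at 6.28 and 5.62 FPKM in sh1 dox libraries, against 3.21 and 3.41 FPKM in sh1 no-dox libraries. All 4 dox libraries lay above all 4 no-dox libraries, and the averaged rise was 0.49 ± 0.08 (SE; 52.3%, limma adjusted p = 0.00310). By line the rise was 0.29 in sh2 (limma adjusted p = 0.179) and 0.69 in sh1 (adjusted p = 0.00730). The sh1 call did not hold in every alternative run. WEE1, a kinase that holds back entry into mitosis, was at 14.58 and 12.68 FPKM in sh2 dox libraries, against 17.33 and 15.90 FPKM in sh2 no-dox libraries, and at 15.88 and 14.14 FPKM in sh1 dox libraries, against 18.02 and 16.75 FPKM in sh1 no-dox libraries. No dox library reached the lowest no-dox library (log2 change -0.24, limma adjusted p = 0.0187). WEE1 passed in neither line alone, with changes of -0.27 in sh2 (limma adjusted p = 0.102) and -0.20 in sh1 (adjusted p = 0.150). NOCT, the gene of nocturnin, a phosphatase, was at 10.16 and 9.90 FPKM in sh2 dox libraries, against 9.55 and 12.09 FPKM in sh2 no-dox libraries, and at 10.04 and 10.02 FPKM in sh1 dox libraries, against 12.89 and 13.74 FPKM in sh1 no-dox libraries. Its groups overlapped in sh2 (averaged change -0.23, limma adjusted p = 0.0286). The NOCT change was -0.09 in sh2 and -0.38 in sh1. The difference between these, 0.28, had an interval of 0.01 to 0.56 and did not pass (limma adjusted p = 0.992). The WEE1 call was lost without sh1-dox-r2 (0.0698), sh1-nodox-r1 (0.0720), sh2-dox-r2 (0.0508) or sh2-nodox-r1 (0.0799) and with no filter on low values (0.0742), and that of NOCT without sh2-nodox-r2 (0.0631), sh2-dox-r2 (0.0694), sh1-nodox-r2 (0.0876), sh1-nodox-r1 (0.0583), sh1-dox-r2 (0.0774) or sh1-dox-r1 (0.0610) and with no filter (0.10), no trend in the moderation (0.0522) or no term for the line (0.0978). Between the untreated lines 0 of the 20 passed in limma, beside 1.45% of all genes. TEF was 0.34 higher in sh2 than in sh1 (limma adjusted p = 0.0705).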

How the data were processed

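Per the submitters' processing notes, HISAT, Bowtie2 and build hg19 were used; what each tool did, its version, the quantifier and the annotation release were not given in the sources used here. The deposited FPKM, which the authors scaled to transcript length and library size, covered 17166 genes. Those with a mean of 1 FPKM or more (11712) entered limma 3.58.1 (R 4.3.3) as log2(FPKM + 1), a scale that shrinks changes of low genes. The model held a mean for each group, which left 4 residual degrees of freedom from 8 libraries; variances were moderated with a trend, tests were two-sided, and p-values were adjusted over all genes by Benjamini and Hochberg. The script was tested on simulated data. The 6 comparisons were dox against no dox averaged over both lines and by line, the difference of the lines' effects, and sh2 minus sh1 without and with dox. The p-values measure the spread between these repeats, which are called independent without a statement of separate cultures and may be technical. The members, the other gene lists, the named genes and the rule for DBP-like genes (the 5 highest correlations) were chosen with earlier results of these data known; overlapping neighbours were taken from RefSeq. Stretches of promoter were ended short of exons in GENCODE v29. Figures were drawn with matplotlib 3.10.9.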

Additional observations from a re-analysis of the deposited data

How the results depend on the processing

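Of the members other than DBP, 1 passed for the averaged dox effect (NR1D2), against 0 with no filter on low values, quantile normalization, median of ratios scaling, no trend or no term for the line, and 0 to 1 when 1 library was left out. Within either line 0 passed under the alternatives run. DBP is left out of these counts because it was chosen on its dox change. Between untreated lines the count of 1 (DBP) became 0 with no filter and 0 to 2 without 1 library; between induced lines the count of 0 became 1 at a mean of at least 5 FPKM and 0 to 1 without 1 library. The cause was not tested.

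The repeat numbers were not shown to pair the samples: deviations of same-numbered samples correlated at -0.03 to 0.22 between groups, positive in 5 of 6 pairs of groups. With the replicate block, 3 members passed between untreated lines (PER1, NR1D1 and DBP), 2 between induced lines (NR1D1 and DBP) and, DBP aside, 2 for the averaged effect (NR1D1 and NR1D2). Calls over all genes with the block numbered 505 (4.31%) against 170 between untreated lines, 21 (0.179%) against 7 between induced lines and 2684 (22.9%) against 1906 for the averaged effect.

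Over all genes the averaged effect gave 1021 calls with no filter, 1074 with no term for the line and 851 to 2351 without 1 library. The count of 297 in sh2 became 35 with no filter, 90 with no trend, 738 with the block and 17 to 369 without 1 library; that of 734 in sh1 became 155, 379, 1362 and 99 to 1090; that of 170 between untreated lines became 23, 67, 505 and 16 to 368; and that of 7 between induced lines became 0, 0, 21 and 0 to 3 in the same order, and 3 after quantile normalization. For the difference of dox effects 0 to 2 passed without 1 library. For the averaged effect 61.9% of the calls were higher with dox in the values as deposited, 50.3% after quantile normalization and 44.2% after median of ratios scaling. Of 720 single-gene values under alternatives, 643 kept direction and side of the threshold (for the dox changes of DBP, stayed within 1 SE), 4 of DBP moved further, 38 lost and 10 gained the call, and 25 turned sign, none of which had passed. The difference of dox effects turned to 0.0091 (PER2) and 0.032 (CRY1) after quantile normalization and 0.012 (CRY1) after median of ratios scaling. Without 1 library the averaged change ran from -0.085 to 0.030 for ARNTL, -0.14 to 0.026 for CRY1 and -0.018 to 0.15 for CRY2, and the untreated difference of ARNTL from -0.071 to 0.025. The difference of dox effects then ran from -0.21 to 0.026 for ARNTL, -0.0056 to 0.074 for CLOCK, -0.037 to 0.18 for PER1, -0.15 to 0.076 for PER2, -0.17 to 0.16 for CRY1, -0.10 to 0.24 for CRY2, -0.078 to 0.11 for NR1D2 and -0.33 to 0.017 for DBP.

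FPKM carry no read totals, so counting error could not be given, and with 2 libraries per group the spread of each gene rests on 4 residual degrees of freedom.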
